A study of Mus musculus with 4 samples.

Results

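The longest protein-coding genes of the mouse genome were examined for their position at the nuclear envelope (NE) in hepatocytes with and without Tm7sf2. A gene was included if it lay on chromosomes 1 to 18 of the NCBIM37 (mm9) annotation and spanned at least 500 kb from its first to its last annotated base. This rule gave 182 of 20694 protein-coding genes, found on all 18 chromosomes, with a median span of 733 kb. The rule itself used only length and chromosome, but it was set with earlier results of these data known, among them the wide loss of contact on chromosome 19, which it leaves out.

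The study compared primary hepatocytes of *Tm7sf2*+/+ (WT) and *Tm7sf2*-/- (KO) mice on a C57BL/6 background, aged 12 to 16 weeks and given no other treatment. Tm7sf2, also called NET47, is a transmembrane protein of the NE and a sterol reductase, and it was absent from every cell of the KO mice. Freshly isolated hepatocytes were transduced for 24 h with lentivirus for Dam-LaminB1 or for unfused Dam, and each of the 4 libraries came from pooled DNA of 4 mice. Only part of the cells take up the virus, and they were in culture when labeled. In DamID, the bacterial Dam methylase fused to LaminB1 marks adenines within GATC where DNA touches the nuclear lamina. The stretches where this label exceeded that of unfused Dam were deposited as lamina-associated domains (LADs), 1 list per genotype. With 1 pooled pair of libraries per genotype, there was no replicate, no SD and no test between the genotypes, and the KO libraries gave fewer usable reads than the WT libraries. What part this depth gap had in the differences below was not tested. The lists hold no expression values, so neither the hepatocyte label nor the loss of Tm7sf2 could be checked in them.

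Genes of this length owe it to their introns. Many encode adhesion molecules, receptors, channels and synaptic scaffolds that are used in neurons and are little expressed in liver. Long, AT-rich genes of this kind are commonly held at the lamina in tissues that do not use them, and lamina contact is in general linked with low transcription. Very long genes also include several common fragile sites, where replication is late and chromosomes tend to break. In the NE literature, a gene released from the periphery is called PI (peripheral to internal) and a gene that moves to it IP (internal to peripheral).

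The borders of the LADs and of their differences show the grain of the assay. A differential region (DR) is a stretch of at least 10 kb that lay in LADs of 1 genotype and not of the other, written below as WT-only or KO-only. Of 2052 DR borders that fell inside the long genes, 2051 (99.95%) had a GATC within 4 bases. The 60 bases around both borders of the longest DR are printed for the pair of genes with the largest WT-only share of their span and the gene with the largest KO-only share, in mm9 on the plus strand with GATC in capitals. These are the sites at which the contact call switched. For *Dscam* the WT-only DR ran from 97116657 to 97173090 of chromosome 16, for *Sdk1* the WT-only DR from 142511597 to 142650441 of chromosome 5, and for *Lrba* the KO-only DR from 86415845 to 86472104 of chromosome 3. All 3 DRs lay inside their gene.
Dscam left, chr16:97116627-97116686: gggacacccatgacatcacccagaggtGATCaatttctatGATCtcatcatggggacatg
Dscam right, chr16:97173061-97173120: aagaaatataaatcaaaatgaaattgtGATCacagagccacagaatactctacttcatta
Sdk1 left, chr5:142511567-142511626: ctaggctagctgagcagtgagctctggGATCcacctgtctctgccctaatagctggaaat
Sdk1 right, chr5:142650412-142650471: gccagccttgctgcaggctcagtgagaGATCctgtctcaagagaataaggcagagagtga
Lrba left, chr3:86415815-86415874: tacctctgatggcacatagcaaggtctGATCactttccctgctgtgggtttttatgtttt
Lrba right, chr3:86472075-86472134: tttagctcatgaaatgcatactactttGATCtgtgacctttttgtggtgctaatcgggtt

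In WT hepatocytes most of the sequence of the long genes lay at the NE, and in KO hepatocytes less of it did. WT LADs covered 78.4% of the 158 Mb that these genes span, against 54.95% of all bases of chromosomes 1 to 18. KO LADs covered 72.8%, against 56.2% of all bases. The long genes thus had lower coverage in the KO list while the chromosomes as a whole had slightly higher coverage. WT-only DRs held 8.97% of their bases and KO-only DRs 4.29%, a ratio of 2.09, whereas outside these genes the ratio was 0.718. Joining LADs of a genotype across gaps of up to 50 kb turned the order of coverage, to 82.9% in WT and 83.5% in KO, so the lower KO coverage lay in short gaps.

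Gene by gene, KO coverage was below WT coverage in 134 of the 182 genes, above it in 44 and equal in 4. It was lower by at least 10 points of the span for 55 genes (30.2%), against 5.34% of all protein-coding genes of chromosomes 1 to 18. It was higher by as much for 19 genes (10.4%), against 16.6%. Of all these protein-coding genes, 70.4% had no WT coverage and so could not fall. Among genes of 250 to 500 kb, 16.5% were lower and 23.9% higher by 10 points. The median change of the long genes was -5.23 points, from a median of 95.6% in WT to 85.0% in KO. With LADs joined across gaps of up to 50 kb, 8.79% of the long genes were lower by 10 points and 13.7% were higher. The order of these shares thus turned under joining. In WT, 113 of the genes had at least 90% of their span in LADs and 9 had none. In KO, 69 genes had at least 90% and 2 had none. The 7 genes that had no WT LAD and some KO LAD had no counterpart, as no gene with a WT LAD lost all contact.

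**Figure D1:**
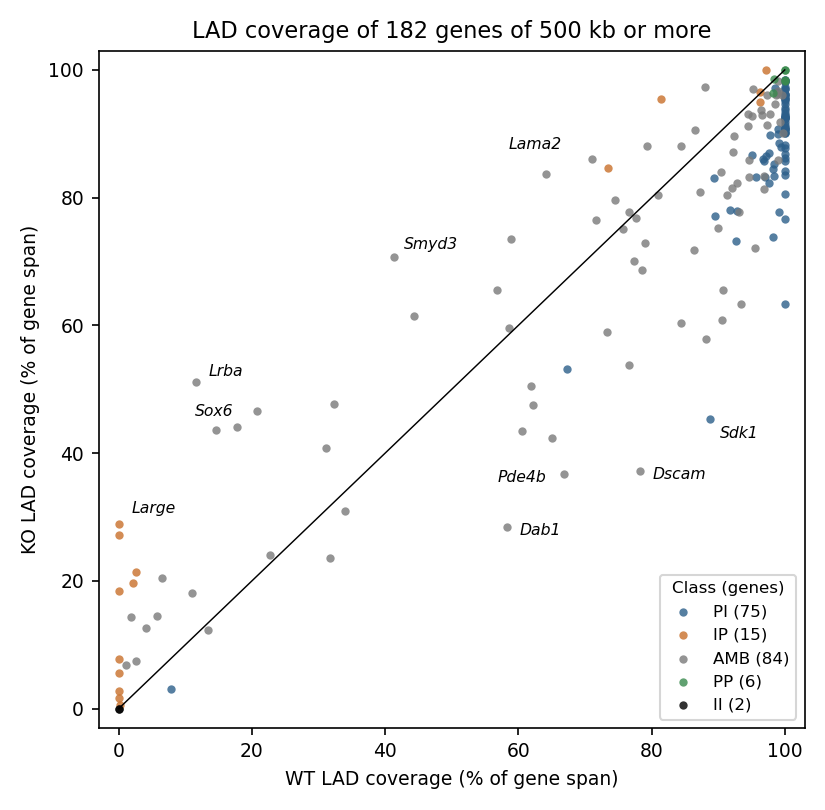
LAD coverage of each of the 182 long genes in WT (x axis) and KO (y axis), in percent of the gene span, colored by class; the line marks equal coverage. Most points crowd at the right edge just below the line, where 107 of the 113 genes with at least 90% WT coverage were lower in KO, and most genes with little WT coverage sit on or above the line.

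The direction of change went with the WT coverage. Of the 113 genes with at least 90% WT coverage, 107 were lower in KO, 4 higher and 2 equal, with a median change of -7.67 points. Of the 37 genes with 50 to 90% WT coverage, 23 were lower and 14 higher. Of the 32 genes under 50%, 4 were lower, 26 higher and 2 equal, with a median change of 8.61 points. A gene that is fully covered can only fall, and a gene with no coverage can only rise, so these counts are read beside shorter genes with the same WT coverage. Among genes of 100 to 500 kb with at least 90% WT coverage, 64.4% were lower in KO with a median change of -4.16 points. At 50 to 90% the 279 genes of that length went the other way from the long genes, with 123 lower, 153 higher and a median change of 1.79 points, against -6.18 points in the long genes. Among genes of that length under 50%, 54.1% were higher.

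Pooled over all classes of WT coverage, the long genes did not stand apart from shorter ones per base of WT LAD. Of their WT LAD bases, 13.4% lay outside KO LADs, against 14.5% for genes under 500 kb and 12.05% for all bases of the chromosomes. At matched WT coverage the long genes lost more of their WT LAD bases in the lower classes. The shares were 24.4% against 19.9% for genes under 500 kb at 50 to 90% WT coverage, and 42.1% against 32.2% under 50%. In genes with at least 90% WT coverage they were close, at 10.04% against 9.84%. The wider pooled difference lay on the other side. Of the KO LAD bases of the long genes, 6.73% lay outside WT LADs, against 29.7% for genes under 500 kb. Few bases of the long genes were free of WT LADs to begin with, and of those, 22.7% were in KO LADs, against 15.2% for the shorter genes. At matched WT coverage the order was the other way in the upper classes, with 47.2% against 68.6% in genes with at least 90% WT coverage and 42.5% against 54.6% at 50 to 90%, and under 50% it was 14.6% against 13.2%. In the plot by gene span, WT-only DRs rose from 2.09% of the bases of genes under 25 kb to 8.97% of those of 500 kb and more. KO-only DRs held 8.33% in the shortest class, 9.29% at 250 to 500 kb and 4.29% in the longest.

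**Figure D2:**
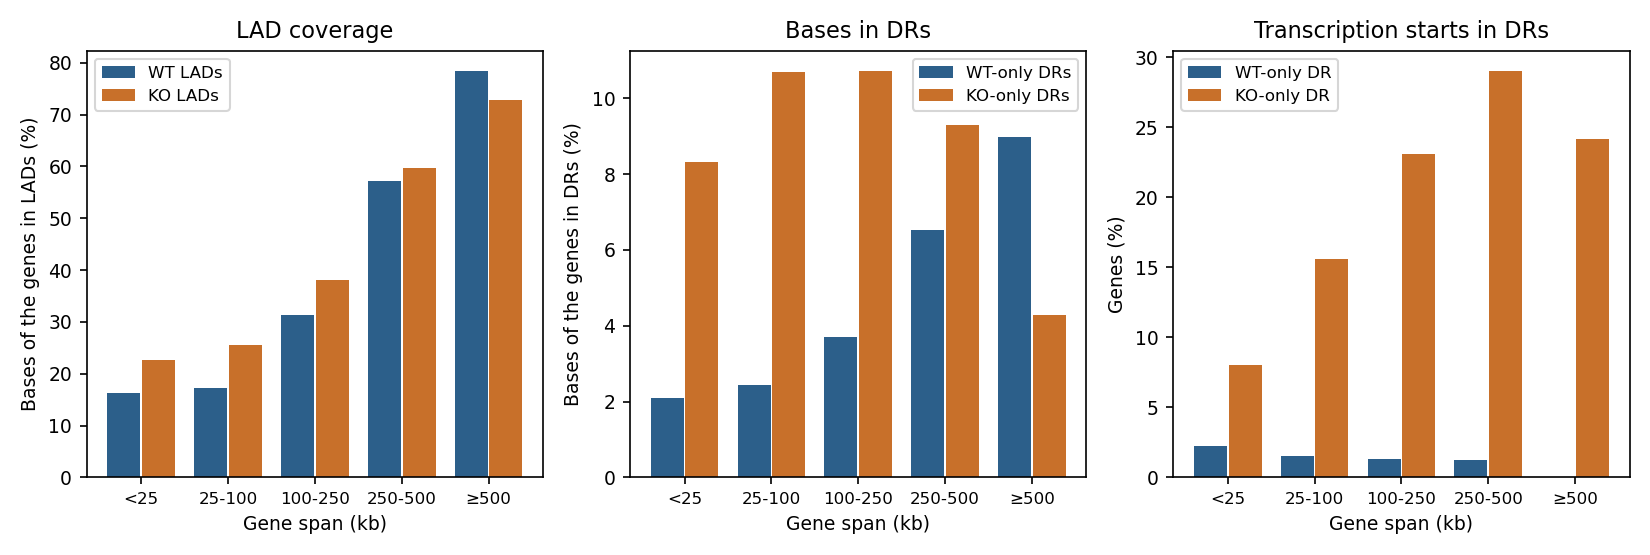
Share of bases in LADs (left), share of bases in DRs (middle) and share of genes with their transcription start in a DR (right) for protein-coding genes of chromosomes 1 to 18 in 5 classes of span, with WT or WT-only in blue and KO or KO-only in orange. In the longest class WT-only DRs exceed KO-only DRs over the bases, yet no start lies in a WT-only DR and 24.2% lie in a KO-only DR.

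When genes were classed by any overlap with a DR, down to 1 base, 75 of the long genes were PI (41.2%, against 4.94% of all protein-coding genes), 15 were IP (8.24% against 17%) and 84 were ambiguous (AMB), meeting DRs of both kinds (46.2% against 2.84%). A further 6 lay in LADs without any DR (PP; 3.30% against 17.9%), and 2 had neither LAD nor DR (II; 1.10% against 57.3%). A long span meets more DRs than a short one, so the counts of PI and AMB follow length as well as change. Among the PI genes the WT-only share of the span had a median of only 7.31%, and 64 of the 75 kept at least 80% of their span in KO LADs. No PI gene was free of KO LADs. When a DR had to hold 10% of the span, 26.9% of the long genes were PI, 7.69% AMB and 49.5% PP.

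The loss of contact took the form of breaks within long LADs rather than release of the whole gene. The 182 genes met 571 LADs in WT and 1238 in KO, 2.17 times as many, and 156 genes met more LADs in KO. The number also rose in KO over all protein-coding genes of these chromosomes, by 1.58 times, with 1.68 times for genes of 250 to 500 kb and 1.97 times for 25 to 100 kb, so more numerous KO LADs were not a trait of the long genes alone. In WT, 51 genes lay wholly inside a single LAD. Of these, 49 met 2 or more KO LADs and 25 met 5 or more, with a median of 4 and a maximum of 13. Their KO coverage still had a median of 92.7%, while their longest unbroken KO stretch had a median of 361 kb against a median span of 702 kb. In the genes with at least 90% WT coverage, 141 gaps between WT LADs had a median length of 13.3 kb, and 644 gaps between KO LADs had a median of 12.5 kb. Both sets of genes were chosen for unbroken or high WT coverage, so these counts alone do not give a direction. Chosen by KO instead, 3 genes lay wholly in KO LADs, and *Sema6d* among them met 2 WT LADs and 1 KO LAD. After joining across gaps of up to 50 kb the KO number was 1.36 times that of WT.

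Of the 10 longest genes, 8 carried this pattern. *Lrp1b*, an LDL receptor family member of 2058 kb, lay wholly in 1 WT LAD and met 12 KO LADs, which kept 92.6% of it. *Csmd1*, a large complement-control protein gene of 1643 kb, went from 1 LAD over its whole span to 7 LADs over 96.2%. *Nrxn3*, a presynaptic neurexin, went from 2 LADs over 99.5% of its span to 17 over 87.9%, the largest rise in number among the 182 genes. These genes stayed at the lamina over most of their length and were cut into pieces. *Ptprd*, a receptor-type tyrosine phosphatase of 2271 kb, had 90.5% in 5 WT LADs and fell by 6.49 points over 17 KO LADs. *Macrod2*, an ADP-ribose hydrolase, went from 91.3% in 4 LADs to 80.5% in 18. *Cntnap2*, *Dlg2* and *Fhit* went from 97.3%, 97.0% and 92.0% in WT to 91.4%, 83.2% and 81.6% in KO. The other 2 of the 10 owe their length to the annotation: *Gm20388* (4435 kb) and *Fgfr2* (3009 kb) hold other protein-coding genes inside their record. *Gm20388* was almost free of LADs in both lists, and *Fgfr2* had 31.7% in WT and 23.5% in KO. Without the 45 genes whose span falls under 500 kb when 1 coding transcript is left out, a choice made after seeing the data, coverage was 81.9% in WT and 76.5% in KO.

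**Figure D3:**
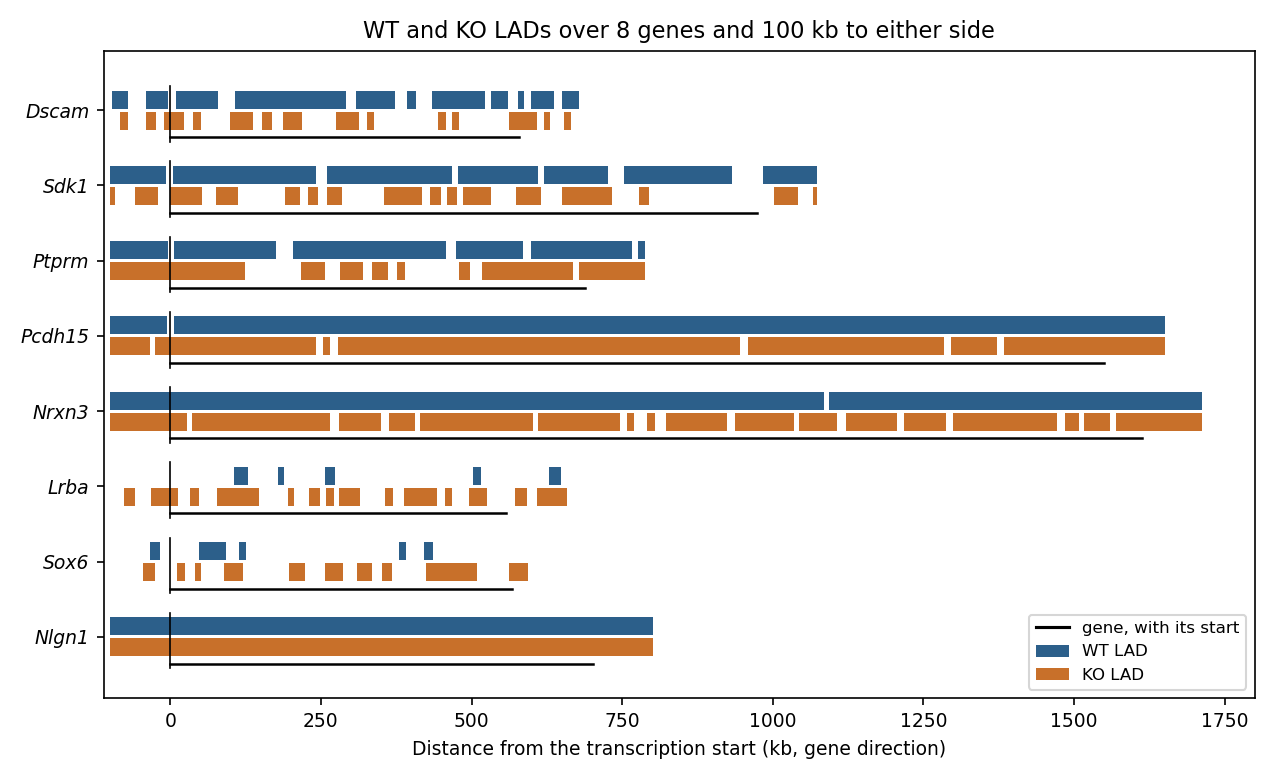
WT LADs (blue) and KO LADs (orange) over 8 long genes, in kb from the transcription start in the direction of the gene, with 100 kb shown to either side and the gene as a black line. *Nrxn3* and *Pcdh15* show 1 or 2 WT LADs cut into 17 and 6 KO LADs, *Dscam* and *Sdk1* a wider loss, *Lrba* and *Sox6* new KO LADs, and *Nlgn1* a single LAD in both; a short WT gap at the start that KO LADs fill is seen in *Dscam*, *Ptprm* and *Pcdh15*.

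In the genes with the largest WT-only share, much of the gene body left the LADs. *Dscam*, an immunoglobulin-family receptor for neuronal self-recognition (chromosome 16, 96813686 to 97392359), fell from 78.3% in WT to 37.2% in KO, with 46.1% of its span in 10 WT-only DRs. Of its 33 exons, 19 lay in WT LADs only. *Sdk1*, a sidekick adhesion molecule (chromosome 5, 141717444 to 142691540), fell from 88.8% to 45.3%, and 26 of its 45 exons left the LADs. Its largest WT-only DR, whose borders are printed above, was 139 kb long and the longest that touched any of these genes. *Tmem132d* went from 100% in a single LAD to 63.4% in 9. *Dab1*, the adaptor of the reelin pathway, went from 58.3% to 28.4%, and *Pde4b*, a cAMP phosphodiesterase, from 66.9% to 36.8%.

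Regulators and channels were also among the 10 with the largest WT-only share. *Rbfox1*, a splicing factor of neurons and muscle, went from 88.2% to 57.8%. *Esrrg*, an orphan nuclear receptor, went from 93.4% to 63.3%. *Auts2*, *Ptprm* and *Kcnma1*, the last a calcium-activated potassium channel, went from 90.7%, 90.5% and 84.4% to 65.5%, 60.9% and 60.4%. None of the 10 lost all its KO LADs, and the lowest KO coverage among them was the 28.4% of *Dab1*.

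The 10 genes with the largest KO-only share took up new LADs over 21.4 to 39.1% of their span. *Lrba*, a BEACH-domain protein of vesicle traffic (chromosome 3, 86028602 to 86586615), rose from 11.6% in WT to 51.1% in KO, with 10 KO-only DRs. Of its 57 exons, 29 lay in KO LADs only and none in WT LADs only. *Sox6*, an HMG-box transcription factor, rose from 14.6% to 43.6%, with 10 of its 17 exons in KO LADs only. *Smyd3*, a lysine methyltransferase, rose from 41.3% to 70.7%, and *Atp8a2*, a phospholipid flippase, from 20.7% to 46.6%. *Large*, a glycosyltransferase that acts on dystroglycan, and *Ptprk*, a receptor-type phosphatase, met no WT LAD, and KO LADs took up 29.0% and 27.2% of their spans. *Rabgap1l* went from 17.8% to 44.1%, *Plcb1* from 64.1% to 83.6%, *Lama2*, a laminin chain, from 71.1% to 86.0%, and *Immp2l* from 32.4% to 47.7%. Unknown bases make up 29.2% of the *Immp2l* span, and its shares are given over the whole span. The 84 AMB genes were split, with more WT-only than KO-only bases in 55 and the reverse in 29.

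Contact was the same in the 2 lists for very few of the genes. *Nlgn1*, the postsynaptic neuroligin 1, and A830018L16Rik lay wholly in 1 LAD in both. *Lpp*, a LIM-domain protein of focal adhesions, and *Rad51l1*, a recombination repair gene, met no LAD in either. At the length threshold, *Edil3* (502 kb) had 98.3% in WT and 96.3% in KO and *Dock1* (503 kb) 0% and 5.60%. Just under it, *Ank3* (493 kb) had 22.7% and 24.9% and *Dnm3* (496 kb) 90.9% and 91.8%. The span threshold therefore cuts through genes of every kind of coverage.

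The transcription start behaved unlike the rest of the gene. In WT, 98 of the 182 starts (53.8%) lay in a LAD, against 22.2% of all protein-coding genes. In KO 143 did (78.6%), against 32.4%. Starts of genes of 250 to 500 kb went from 37.5% to 66.3%, so the gain at starts was not particular to the long genes. In the long genes, starts thus gained contact while coverage of the whole span was lower. A KO-only DR held 44 starts (24.2%), against 11.8% of all protein-coding genes, and a WT-only DR held 0 (0%), against 1.95%. Genes of 250 to 500 kb had a higher share of starts in KO-only DRs, 29.0%, with 1.27% in WT-only DRs. At the middle of the span the order was the other way, with 19 genes WT-only and 5 KO-only. At 25% of the span the numbers were closer, 15 WT-only and 13 KO-only, and at 75% they were 15 and 12. At the gene end the numbers were 16 and 20. In 28 of the 113 genes that had at least 90% WT coverage the start was outside WT LADs, and 25 of those 28 starts were in KO LADs. The 3 starts that lay in a WT LAD and in no KO LAD, those of *Cdh13*, *Cntnap5a* and *Dlg2*, fell in stretches too short to be a DR.

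**Figure D4:**
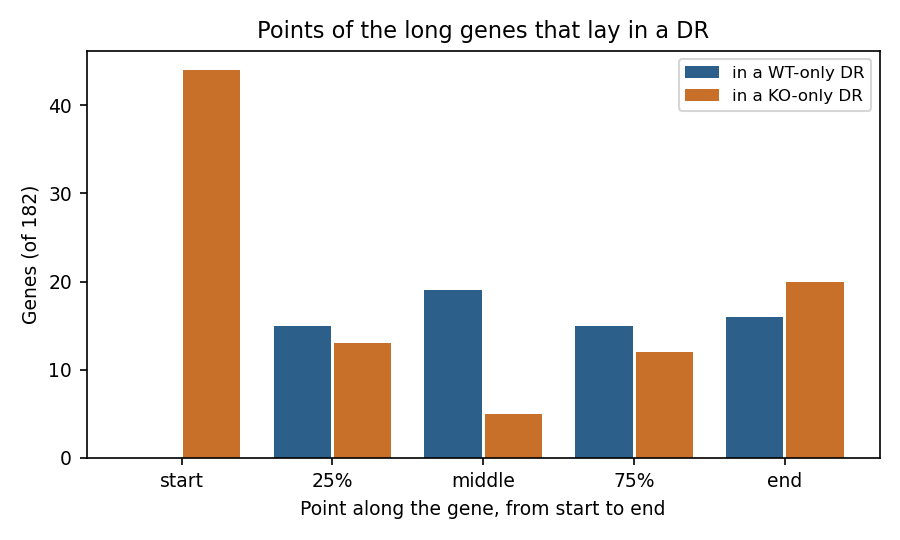
Number of the 182 long genes whose transcription start, 3 inner points or end lay in DRs of the WT-only (blue) or KO-only (orange) kind. At the start the numbers are 0 and 44, at 25% of the span 15 and 13, at the middle 19 and 5, and at 75% 15 and 12.

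Averaged over the genes, WT LADs showed a narrow dip at the start that KO LADs did not have. In the 5 kb just downstream of the start, mean coverage was 54.6% in WT and 79.2% in KO. In the bin centered 42.5 kb downstream it was 80.3% in WT and 75.7% in KO, and 97.5 kb upstream it was 75.9% and 72.6%. No such dip was seen at the gene end, where the 5 kb just beyond it had 70.1% in WT and 72.2% in KO. Of the 84 starts outside WT LADs, 48 lay in KO LADs. The WT gap around these 48 had a median length of 26.4 kb, and 30 of the 48 gaps were wholly within KO LADs. For the 36 starts outside LADs in both lists the median WT gap was 599 kb. With LADs joined across gaps of up to 50 kb, 75.8% of the starts were in WT LADs and 86.3% in KO LADs. Leaving out the 45 genes whose span rests on 1 transcript left 37 of 137 starts in KO-only DRs and 0 in WT-only DRs.

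**Figure D5:**
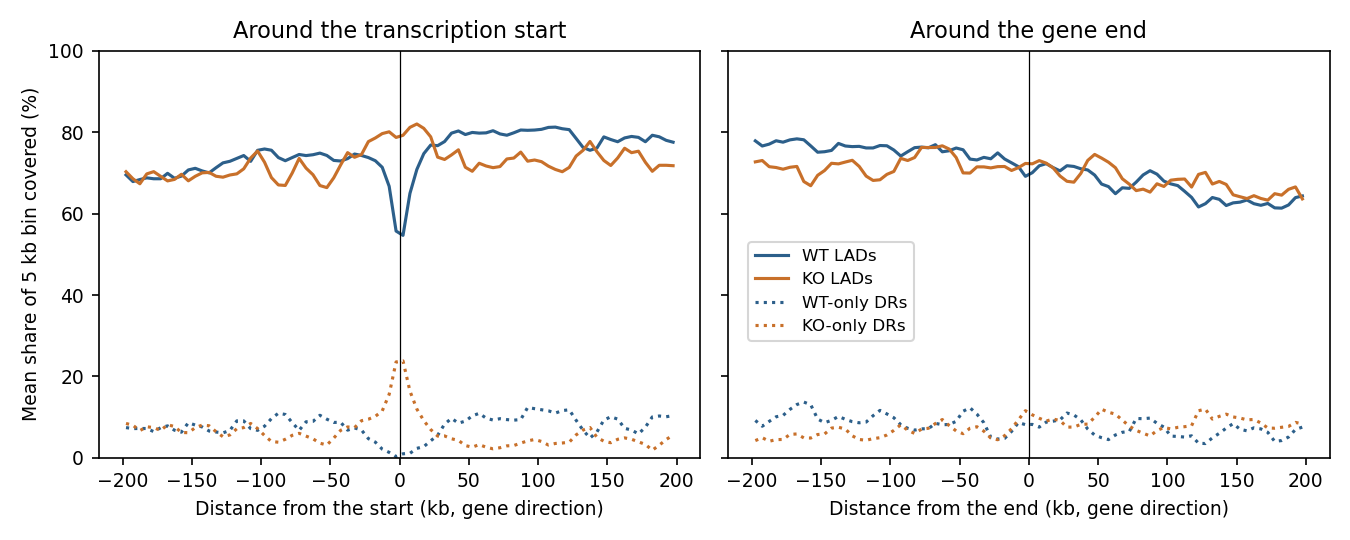
Mean share of each 5 kb bin covered by WT LADs, KO LADs and the DRs within 200 kb of the transcription start (left) and of the gene end (right), over the long genes and in the direction of transcription. The blue WT line dips to 54.6% at the start, where the KO line is at 79.2% and KO-only DRs peak; no dip is seen at the end.

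The length of the WT gap around the start varied among the named genes. *Pcdh15*, a cadherin of the inner-ear tip link (chromosome 10, 72562090 to 74112482), had a WT gap of 11.04 kb around its start, and a single WT LAD covered 99.6% of it. The gap lay wholly in a KO LAD, whereas 5 WT-only DRs lay further along the gene, so its coverage went down to 96.0%. *Ptprt* and *Galntl6*, a receptor-type phosphatase and a GalNAc-transferase-like gene, had WT gaps of 10.015 kb and 10.7 kb at the start, both wholly in KO LADs. *Erbb4*, a neuregulin receptor, had a gap of 17.9 kb, and *Pde4d*, a cAMP phosphodiesterase, one of 14.0 kb. *Dscam* had its start in a 12.5 kb WT gap that a KO LAD filled, although 41.1 points of its span were lost from LADs. *Lingo2*, *Sgcz*, *Fhit* and *Immp2l* had gaps of 13.5, 33.2, 37.6 and 55.2 kb. *Ctnna3* completed the 10 longest genes with a start in a KO-only DR, and its start lay 11.2 kb from a WT LAD at the edge of a gap of 4290 kb, of which 8.13% was in KO LADs. Of the 48 genes whose start was in KO LADs only, 32 had lower and 16 had higher coverage over the whole span in KO.

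Filling of WT gaps at starts was not limited to genes of 500 kb and more. For starts outside WT LADs but with at least 50% WT coverage in the 250 kb to either side, KO LADs reached 40 of 48 in the long genes (83.3%, 95% Wilson interval 70.4 to 91.3%) and 81.3% (72.1 to 88.0%) of 91 in genes of 250 to 500 kb. The share was 67.2% for genes of 100 to 250 kb, 54.7% for 25 to 100 kb and 48.4% under 25 kb. With under 50% WT coverage nearby the share also rose with length up to 500 kb. It was 7.98% under 25 kb, 14.0% at 25 to 100 kb, 23.3% at 100 to 250 kb and 34.3% (28.1 to 41.1%) at 250 to 500 kb. The share in the long genes was lower, at 8 of 36 starts (22.2%, 11.7 to 38.1%). That interval holds the 34.3% of the class before, so an end of the rise is not shown. These intervals cover counting error only, and neighboring genes share LADs. The long genes and the next class thus had overlapping intervals. In the other direction, 3.06% of long-gene starts that were in WT LADs were outside KO LADs. This share was 4.52% at 250 to 500 kb, 7.32% at 100 to 250 kb, 15.0% at 25 to 100 kb and 10.4% under 25 kb. Among 382 other starts of coding transcripts, more than 10 kb from the gene's own start, 12.8% were in KO-only DRs and 6.81% in WT-only DRs, so the contrast was smaller at inner starts.

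Few of the breaks in KO LADs were at starts. In the 113 genes with at least 90% WT coverage, 28 of the 141 WT gaps (19.9%) held the start of such a gene, and 6 of the 644 KO gaps (0.932%) did. Counting any coding transcript of any gene, 32.6% of the WT gaps and 4.19% of the KO gaps held a start. Exonic sequence was not lower in KO as the spans were. Exonic bases were 67.8% in WT LADs and 70.9% in KO LADs, while coverage of the whole span was lower in KO. Of 4066 exons, 402 were in WT LADs only, 372 in KO LADs only, 2526 in both and 766 in neither. Of 707 WT-only DRs that touched a long gene, 201 (28.4%) held an exon, and of 359 KO-only DRs 167 (46.5%) did. The WT-only DRs were mostly intronic.

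Promoters were richer in CG where the start was outside WT LADs. Over the 250 bases upstream of the start, the median GC content was 62.4% for the 44 genes with a start in a KO-only DR, 56.8% for the 98 genes with a start in a WT LAD and 54.4% for all protein-coding genes of the 18 chromosomes. The ratio of observed to expected CG dinucleotides had medians of 0.754, 0.533 and 0.505. All 84 long genes with a start outside WT LADs had nearly the values of the KO-only group, at 62.2% and 0.739, so the contrast was between starts inside and outside WT LADs. The motif GATC, which reads the same on both strands, was in 31.8% of the windows of the KO-only group. It was in 46.9% for starts in a WT LAD and 40.2% for all protein-coding genes. For GATC the 84 starts outside WT LADs did not have the value of the KO-only group, at 41.7%. The windows of the 3 longest genes with a start in a KO-only DR and of 2 of the 3 longest with a start in LADs of both genotypes follow, 5′ to 3′ on the gene's strand in mm9, with each CG dinucleotide in capitals. They are shown because KO-only DRs cover the first 3 starts.
Fhit, start in a KO-only DR, chr14:11994550-11994799, minus: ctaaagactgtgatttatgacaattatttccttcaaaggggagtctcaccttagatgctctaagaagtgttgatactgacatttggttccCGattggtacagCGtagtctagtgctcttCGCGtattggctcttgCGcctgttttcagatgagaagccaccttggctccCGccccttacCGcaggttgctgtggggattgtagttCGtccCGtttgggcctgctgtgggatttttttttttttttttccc
Ctnna3, start in a KO-only DR, chr10:62892596-62892845, plus: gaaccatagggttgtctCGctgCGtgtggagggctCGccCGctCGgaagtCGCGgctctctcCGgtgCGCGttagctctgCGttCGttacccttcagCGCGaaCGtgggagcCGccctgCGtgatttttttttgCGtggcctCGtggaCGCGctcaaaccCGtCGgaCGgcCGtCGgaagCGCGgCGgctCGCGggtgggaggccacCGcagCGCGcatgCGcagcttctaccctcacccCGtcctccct
Pcdh15, start in a KO-only DR, chr10:72561840-72562089, plus: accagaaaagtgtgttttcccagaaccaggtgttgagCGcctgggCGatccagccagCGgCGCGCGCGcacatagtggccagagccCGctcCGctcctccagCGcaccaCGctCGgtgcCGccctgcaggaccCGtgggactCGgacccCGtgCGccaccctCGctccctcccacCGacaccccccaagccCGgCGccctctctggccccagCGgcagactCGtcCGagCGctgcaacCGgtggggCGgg
Cntnap2, start in both, chr6:45009810-45010059, plus: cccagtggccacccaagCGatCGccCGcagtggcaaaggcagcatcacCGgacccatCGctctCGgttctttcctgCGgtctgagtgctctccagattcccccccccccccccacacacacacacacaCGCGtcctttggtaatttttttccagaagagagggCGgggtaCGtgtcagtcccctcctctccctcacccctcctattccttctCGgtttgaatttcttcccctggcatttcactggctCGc
Lrp1b, start in both, chr2:42509119-42509368, minus: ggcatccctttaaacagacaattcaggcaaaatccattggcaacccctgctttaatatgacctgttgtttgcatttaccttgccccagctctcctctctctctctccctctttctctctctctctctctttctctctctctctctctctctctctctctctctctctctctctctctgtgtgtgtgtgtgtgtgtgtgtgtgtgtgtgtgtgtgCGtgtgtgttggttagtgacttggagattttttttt

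The printed windows show that the medians hide overlap. *Ctnna3*, *Pcdh15* and *Fhit* had 36, 27 and 9 CG dinucleotides, and *Cntnap2* and *Lrp1b* had 13 and 1. *Cntnap2* had more than *Fhit* although its start was in LADs of both genotypes.

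Base composition of the gene bodies went with WT coverage more than with its loss. Median GC content was 38.8% in the genes with at least 90% WT coverage, 41.9% in those with 20 to 90% and 42.7% in those under 20%. Across the 182 genes, Spearman's rho was -0.48 between GC content and WT coverage and 0.11 between GC content and the WT-only share; these describe genes of the same libraries, which are not replicates. Within genes, WT-only DRs had fewer GATC sites than the LAD sequence kept in both, lower in 126 of the 152 genes with enough of each, with medians of 2.18 and 2.43 sites per kb. KO-only DRs also had fewer than the kept LAD sequence, in 60 of 73 genes, with medians of 2.20 and 2.44 sites per kb, and a higher GC content in 61 of the 73. Against sequence in LADs of neither genotype, KO-only DRs had more GATC sites in 48 of 72 genes, with medians of 2.26 and 2.23 sites per kb. The number of GATC sites sets how many fragments report on a stretch, and its part in these differences was not tested.

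The surroundings of the long genes did not show the same net change. Over the 250 kb to either side, mean coverage was 68.5% in WT and 69.0% in KO, whereas the mean over spans went from 78.1% to 73.2%. The flanks of 91 genes had lower coverage in KO and those of 84 had higher. The span fell by more than its flanks for 115 of the 182 genes. By chromosome, the genes of 17 of the 18 chromosomes had lower coverage in KO over their summed bases. The drop was widest on chromosome 5, from 91.5% to 72.7% over 8 genes, all of them lower, and chromosome 3 was the exception, at 70.5% and 72.2% over 12 genes. For comparison, the 6 genes of 500 kb and more on chromosome 19 ranged from 18.5 to 98.4% in WT and from 5.54 to 56.0% in KO. WT-only DRs held 15.1 to 71.8% of their spans. The largest such share among the 182 long genes of chromosomes 1 to 18 was the 46.1% of *Dscam*.

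Functional groups of the long genes were described by lists that took in 120 of the 182, some genes in more than 1. Surface proteins of neurons come first. All 11 long genes of the neurexin, neuroligin and contactin-associated group had at least 90% WT coverage, 10 were lower in KO and 0 higher, and their medians were 99.5% and 87.9%. *Cntnap5a* and *Lrrtm4*, a synaptic leucine-rich repeat protein, went from 100% each to 85.7% and 76.6%. Of 16 genes of immunoglobulin-like adhesion and axon guidance, *Dscam* and *Sdk1* among them, 15 were lower, with medians of 99.2% and 92.4%. All 4 cadherins and protocadherins were lower, with the widest drop in *Pcdh9*, from 95.6% to 72.2%, and 8.76% of *Cdh13* was in WT-only DRs.

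Receptors, channels and scaffolds are best read beside all the long genes with at least 90% WT coverage, of which 107 of 113 were lower in KO. All 7 glutamate and GABA receptor genes were lower in KO, among them *Grm5*, a metabotropic glutamate receptor, at 100% and 83.6%, and *Grid1* at 89.5% and 77.1%. Of 11 ion channel genes and their subunits 10 were lower, with a median change of -13.1 points, and *Kcnip4* went from 99.2% to 77.8%. Of 18 membrane scaffold and junction genes 16 were lower, *Ctnna2* going from 100% to 80.6%. Of 6 receptor-type phosphatases 5 were lower, with *Ptprk* the exception.

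The regulatory and metabolic groups follow. Of 13 transcription factors and chromatin or RNA-binding regulators, 7 were lower and 6 higher, with 4 past 10 points in each direction. Of 17 enzyme and metabolic genes 12 were lower and 5 higher. Of 15 fragile-site genes 10 were lower and 4 higher, with *Dpyd*, the pyrimidine-degrading enzyme, at 76.6% and 53.8% and *Immp2l* on the other side. Of 11 growth factor signaling and kinase genes 6 were lower and 5 higher; *Alk* and *Nrg3* went from 96.9% and 100% to 83.4% and 88.2%. Over all 182 genes, 134 were lower and 44 higher, and these group counts carry no test. *Sugct*, which this annotation lists under its older symbol 5033411D12Rik, is named by the study for lipid metabolism, as a PI gene with raised expression. It was PI here too, with 98.6% in WT and 97.2% in KO. The call rests on 1 WT-only DR of 10.2 kb, 1.22% of the span, close to the 10 kb minimum.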

How the data were processed

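DamID libraries of WT and *Tm7sf2*-KO hepatocytes (Dam-LaminB1 and Dam, 4 in all, each from pooled mice) were processed by the authors, who mapped reads to mm9; the processing notes name BWA and limma. The deposited files used here hold the chromosome, start and end of LADs and DRs, and no counts, signal or score, so the depth behind each border is not shown. Per the study's methods, LADs came from circular binary segmentation (DNAcopy) of the Dam-LaminB1 to Dam ratio. Subtraction of the LAD lists with a 10 kb minimum returned all 7787 WT-only and 8208 KO-only DRs of the whole series with identical borders. Genes came from the NCBIM37 annotation. Coverage, classes (1 base of overlap), starts, exons and base composition were computed in Python 3.11.15 with numpy 2.4.6; each interval function was checked on simulated lists, with 0 errors. A few sequences are not reported here. There was 1 library pair per genotype and no test. The members, lists and named genes were chosen with earlier results of these data known. Named genes were the extremes of length, of DR share, of LAD number and of each list, the longest with a start in a DR, those unchanged, those at the threshold and those the study names. The 13 alternatives covered gap joining, minimum lengths, span, overlap and point thresholds, and 2 left out genes with unusual records.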

Additional observations from a re-analysis of the deposited data

How the results depend on the processing

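Of 122 values under 13 alternatives, 86 stayed within the limits set and 36 did not. The limits were the 95% Wilson interval of the reported share of genes and a factor of 1.5 for coverage and LAD numbers. A rise in WT or KO coverage could not pass that factor without exceeding the whole span, so the limits could not register it. LADs of at least 20 kb and a span of at least 400 kb kept all values within these limits, which are wide for small classes: II was 2.75% under the first and IP 13.0% under the second. LADs merged over gaps of 50 kb or less moved most: the share of WT LAD bases outside KO LADs to 4.31%, KO LADs per WT LAD to 1.36, starts in WT and KO LADs to 75.8% and 86.3%, genes lower by 10 points to 8.79%, and PI, IP, AMB and PP to 17.0%, 15.4%, 15.4% and 51.1%. The same merging turned the order of coverage, to 82.9% in WT and 83.5% in KO, and 13.7% of genes were higher by 10 points. These values counted as within the limits although the direction of change was reversed. A span of at least 1 Mb gave 4.39% of KO LAD bases outside WT LADs, 85.1% of starts in KO LADs, 38.3% lower, 4.26% higher, 2.13% IP, 0% PP and 0% II. At least 10% of the span gave 26.9% PI, 7.69% AMB and 49.5% PP. The start alone gave 0% PI, 24.2% IP, 0% AMB, 52.2% PP and 23.6% II. DRs of at least 20 kb gave 17.0% IP, 19.2% AMB and 23.6% PP, and differences of any length 33.5% PI, 4.95% IP, 59.3% AMB and 1.10% PP. At 5 points, 50.5% were lower and 16.5% higher, and at 20 points 8.79% and 3.85%. Leaving out genes whose span rests on 1 transcript, chosen after seeing the data, gave 83.9% of starts in KO LADs, and leaving out genes that hold 5 or more others, also chosen then, moved none. Apart from the constructions themselves, the cause was not tested. No paired analysis was possible because each genotype has 1 pooled library pair, which also leaves no replicate to leave out.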

Other observations

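The X chromosome, which the rule leaves out, carried 12 further protein-coding genes of at least 500 kb. *Dmd*, the dystrophin gene, had 85.5% of its 2257 kb in 14 WT LADs and 71.5% in 22 KO LADs. *Il1rapl1*, a synaptic receptor of the interleukin-1 receptor family, went from 98.5% in 3 LADs to 85.9% in 13. *Arhgap6* and *Diap2* went the other way, from 35.3% and 6.93% in WT to 79.4% and 36.3% in KO. These genes were named after their values were seen.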
